A study of Mus musculus with 10 samples.

Results

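The class I and class II histone deacetylases are a family of 10 genes, Hdac1 to Hdac10, which remove acetyl groups from histone tails and from other proteins. All 10 gene symbols were found among the 32531 gene rows of the count files. They are described here in ribosome-bound RNA of dopamine D1 receptor cells from the striatum of adult mice. Each mouse carried the Drd1-TRAP transgene of line CP73, in which the Drd1 promoter drives ribosomal protein L10a fused to EGFP, on a background that began as FVB/N-Swiss Webster crossed with C57BL/6 and had at least 9 generations of C57BL/6 breeding. In translating ribosome affinity purification (TRAP), antibodies to EGFP pull the tagged ribosomes out of a homogenate, together with their RNA, for sequencing. There were 3 pull-downs each from mice that self-administered saline, mice that self-administered cocaine through an intravenous line in short sessions, and yoked control mice, plus 1 input library of total RNA from the whole striatum. In general a yoked animal receives deliveries set by another animal, but the labels do not state what was delivered to these yoked mice. Nothing in the labels ties the libraries of a group to separate animals, so p-values measure the spread between these libraries, which may be technical.

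Class I enzymes (Hdac1, Hdac2, Hdac3 and Hdac8) are mostly nuclear. Hdac1 and Hdac2 are the catalytic subunits of the Sin3, NuRD and CoREST corepressor complexes and Hdac3 is that of the NCoR complex, while Hdac8 acts without such a complex. Class IIa enzymes (Hdac4, Hdac5, Hdac7 and Hdac9) have little catalytic activity of their own and repress transcription as partners of Mef2 factors. When calcium-dependent and related kinases phosphorylate them, they bind 14-3-3 proteins and leave the nucleus. Of class IIb, Hdac6 is a cytoplasmic deacetylase of tubulin and Hdac10 is a deacetylase of polyamines. In the rodent striatum Hdac4 and Hdac5 are known from studies of cocaine reward, in which the signal studied was mainly the movement of the proteins between nucleus and cytoplasm.

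Depth was 12528806 to 28408236 gene counts in saline, 32169018 to 33432793 in cocaine and 38611396 to 45242175 in yoked pull-downs, and 40519976 in the input. Levels are given as CPM, a gene's counts scaled to a common total of gene counts, and a count of 3 corresponds to 0.0663 to 0.239 CPM in the pull-downs. CPM is not corrected for transcript length, so levels are compared between libraries and not between genes. Each group has a sequencing lane of its own in the labels (cocaine lane 1, yoked lane 2, saline lane 3, input lane 5), and the 2 factors cannot be told apart. Drd1 stood at 592 to 930 CPM across pull-downs against 331 for the input, and Tac1, another D1 marker, at 249 to 555 against 73.8 CPM. Summed over 8 markers each, astrocyte RNA was at 221 to 1110 CPM in the pull-downs against 2573 in the input, and oligodendrocyte RNA at 197 to 1001 against 2693. The 5 cortical glutamatergic markers with enough counts had a median pull-down to input ratio of 2.74, although the sum over 6 was below the input in saline 1 and yoked 2, at 0.735 and 0.656 of it.

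One library stood apart. In yoked 3, 24.7% of 11895 genes (mean count of at least 50) lay at least 1.5-fold from the median of the other 8 pull-downs, against 2.48% to 7.94% in each of the others. Genes lay above and below in like numbers, 1456 and 1486. Astrocyte and oligodendrocyte sums in this library were 235 and 197 CPM, and the D1 marker sum, 3274 CPM, was the highest of the 9. Low glial sums were shared by saline 3 (221 and 252 CPM) and cocaine 3 (224 and 235 CPM), which did not stand apart. Values that rest on the yoked group are therefore given with and without yoked 3.

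Hdac4 and Hdac5 were chosen for a closer look after their values were seen, and neither was called in any comparison. The 250 bases before an annotated start of each are shown for their sequence features (RefSeq, GRCm38.p6). That of Hdac4 lies at chr1:92180342-92180591 on the minus strand, inside the annotated span of the gene, and that of Hdac5 at chr11:102230173-102230422 on the minus strand. Capitals mark the GC box, GGGCGG on either strand.
Hdac4: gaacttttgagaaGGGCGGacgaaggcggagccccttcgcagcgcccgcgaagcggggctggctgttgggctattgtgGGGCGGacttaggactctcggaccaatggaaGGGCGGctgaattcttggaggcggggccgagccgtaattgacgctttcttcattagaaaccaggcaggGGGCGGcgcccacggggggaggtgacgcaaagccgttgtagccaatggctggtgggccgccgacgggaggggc
Hdac5: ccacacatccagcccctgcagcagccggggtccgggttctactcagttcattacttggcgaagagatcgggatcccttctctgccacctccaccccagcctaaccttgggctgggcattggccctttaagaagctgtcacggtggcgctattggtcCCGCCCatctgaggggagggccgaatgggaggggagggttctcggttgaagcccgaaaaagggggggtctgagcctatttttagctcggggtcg
The GC box occurred 4 times in the Hdac4 window and 1 time in that of Hdac5. The window of Hdac6 also held 4. Of all 32851 windows of this length 32.7% held at least 1, and the share that held 4 was not measured. The sequence TGACG, the core of the CREB site, searched on both strands, occurred 2 times in the Hdac4 window and 0 times in that of Hdac5, and 17.8% of windows held it. The motifs do not overlap in letters, and a match is a description of the sequence only.

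The pull-downs were compared with the input, and the family divided into genes above the input, near it and below it. Hdac2 and Hdac3 of class I were at least 1.5-fold above the input in all 9 pull-downs, where 11.8% of 11896 genes were. Hdac3 no longer passed with totals that leave out Rn45s and Malat1, nor with 2 CPM added. Hdac7 was at least 1.5-fold below it in all 9, where 11.3% of genes were. The input is a single library, so these ratios have no test, and their spread is that between pull-downs. In RNA from a whole tissue, fewer cells of a type and less RNA per cell cannot be told apart.

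**Figure D1:**
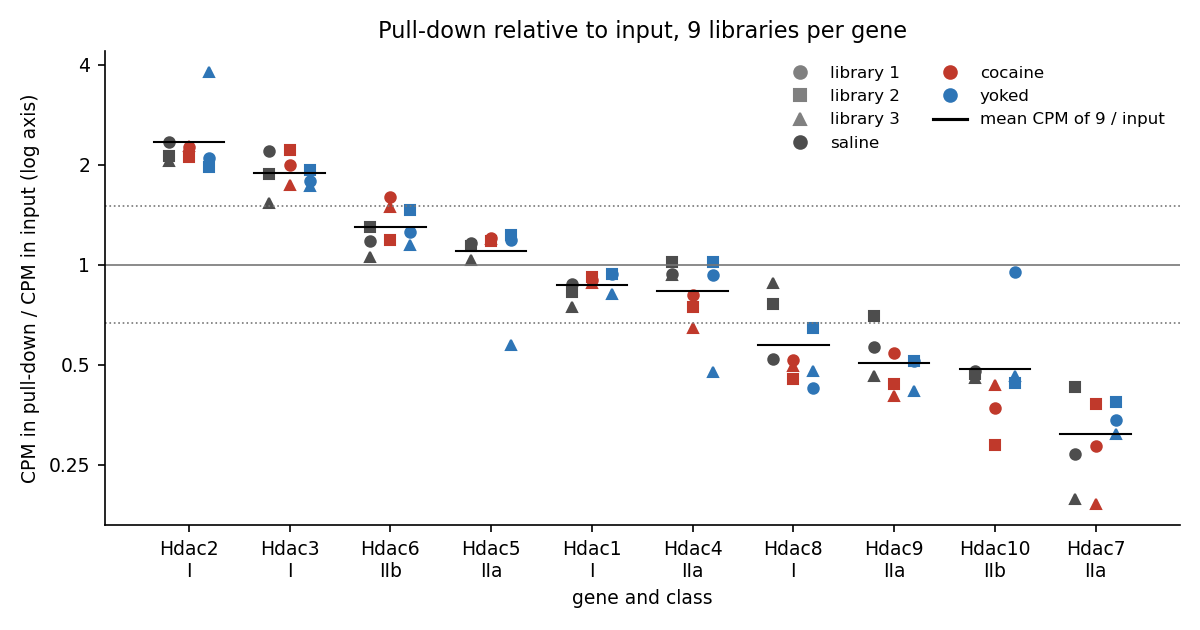
CPM in each of 9 pull-downs divided by CPM in the input, on a log axis, for the 10 genes ordered by their mean; colours are groups, shapes are library numbers, bars are the mean pull-down CPM over the input, and dotted lines mark 1.5-fold. Hdac2 and Hdac3 lie above the upper line in all 9, Hdac7 lies below the lower line in all 9, and yoked 3 is the lowest library for Hdac4 and Hdac5.

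Hdac2 had the highest ratio to the input of the 10 genes, 2.34 (2.16 without yoked 3). It stood at 172, 156 and 150.3 CPM in saline 1, 2 and 3, at 166, 155 and 167 in cocaine 1, 2 and 3, and at 154, 144 and 278 in yoked 1, 2 and 3. The input had 73.2 CPM (exact Poisson 95% interval 70.6 to 75.9, which covers counting error only, as do all intervals here). All 9 pull-downs lay above that interval, and yoked 3 lay far above the other 8, which ranged from 144 to 172. Hdac3 stood at 55.8, 47.7 and 39.0 CPM in saline, 50.7, 56.2 and 44.2 in cocaine and 45.4, 49.2 and 43.8 in yoked libraries, against 25.4 (23.9 to 27.0) in the input, a ratio of 1.89. Its lowest pull-down, saline 3, was at 1.54 times the input, just past the 1.5-fold line. The nearest to that line from below was Hdac6, at 1.30 times the input with a range of 1.05 to 1.60.

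Hdac1, the paralogue of Hdac2, was near the input. It stood at 4.15, 3.91 and 3.55 CPM in saline, 4.26, 4.37 and 4.17 in cocaine and 4.45, 4.43 and 3.87 in yoked libraries, and at 4.74 (4.09 to 5.46) in the input. The mean ratio was 0.871, and 9 of 9 pull-downs were below the input, most of them within its counting interval. The RefSeq table lists a pseudogene of it, Hdac1-ps, of 1977 bases on chromosome 17 (78491565 to 78493541). Reads that align to more than 1 place were not counted per gene, so the level of Hdac1 is uncertain. Its counts were low, 49 to 193 per pull-down. Hdac8 had ratios of 0.425 to 0.879, with 46 to 135 counts per pull-down and 195 in the input.

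Class IIa genes lay near or below the input. Hdac5 had a mean ratio of 1.10 (1.17 without yoked 3), with 8 of 9 pull-downs above the input and yoked 3 below it. Hdac4 had a mean ratio of 0.836 (0.881 without yoked 3), with 7 of 9 below. Hdac9 was at 0.506 of its input level, with a range of 0.402 to 0.701, so that only saline 2 kept it from the 1.5-fold line. It stood at 23.1, 28.7 and 19.0 CPM in saline, 22.1, 17.9 and 16.4 in cocaine and 21.0, 21.1 and 17.0 in yoked libraries against 40.9 (38.9 to 42.9) in the input.

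Hdac7, known for its role in endothelial cells and thymocytes, had the lowest ratio of the 10 genes, 0.310. It stood at 1.76, 2.79 and 1.28 CPM in saline, 1.86, 2.48 and 1.24 in cocaine and 2.23, 2.53 and 2.01 in yoked libraries, against 6.52 (5.75 to 7.35) in the input. In each group the library numbered 2 was the highest. The summed CPM of 6 endothelial markers was 2.21 to 3.47 in the libraries numbered 2, 1.73 to 1.94 in those numbered 1 and 1.03 to 2.14 in those numbered 3, and 13.4 in the input. These sums rest on 29 to 151 reads per pull-down, with 29 in saline 2 and 55 in saline 1. Saline 2 and saline 3 differed by less than counting error, and other differences were not tested against it. One of the 6 markers had no count in each cocaine library and in yoked 3. Median astrocyte, oligodendrocyte and microglial sums were also highest in libraries numbered 2, at 652, 652 and 16.4 CPM. Those of D2 neuron and interneuron markers were too. Cocaine 2 was below cocaine 1 for the glial sums, and D1 and cortical medians were highest in libraries numbered 3. The part of any of these cells in the level of Hdac7 was not tested. Of class IIb, Hdac10 was at 0.484 of the input, with 16 to 100 counts per pull-down, and Hdac6 was above the input in 9 of 9.

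The ratio of reads of 2 genes within a library does not depend on how the library is scaled. Hdac2 had 1.20 to 1.52 reads per read of Hdac5 in the 8 pull-downs other than yoked 3, and 0.753 (95% interval 0.718 to 0.790) in the input. Hdac2 had 32.6 to 42.3 reads per read of Hdac1 in the same 8 pull-downs and 15.5 (13.4 to 18.0) in the input. Hdac9 had 0.141 to 0.258 reads per read of Hdac5 in them and 0.421 (0.397 to 0.446) in the input. All of these pull-downs therefore lay on one side of the input for each of these 3 pairs, which were chosen after their values were seen. Hdac2 per read of Hdac3 did not separate in this way, with 2.76 in cocaine 2 and 2.94 in yoked 2 against 2.88 (2.68 to 3.10) in the input. Of the reads of the 10 genes together, Hdac2 made up 36.1% to 42.5% across the pull-downs other than yoked 3, 64.2% in yoked 3 and 24.0% in the input. Hdac9 made up 3.93% to 7.03% across all 9 against 13.4%.

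The members of long genomic span were among those below the input. Hdac9 spans 869516 bases (chromosome 12, 34047580 to 34917095), Hdac4 266924 (chromosome 1, 91928779 to 92195702) and Hdac8 220744 (chromosome X, 102284638 to 102505381), and their ratios were 0.506, 0.836 and 0.575. Hdac2 spans 27593 bases (chromosome 10, 36974297 to 37001889), Hdac3 18045 (chromosome 18) and Hdac6 17932 (chromosome X, 7930116 to 7948047). Hdac10, the shortest at 5398 bases (chromosome 15, 89123303 to 89128700), and Hdac7, at 51842 (chromosome 15, 97792661 to 97844502), were below the input without being long. Hdac1 spans 26543 bases (chromosome 4, 129516104 to 129542646) and Hdac5 34426 (chromosome 11, 102195747 to 102230172). Across 11015 genes, which share these libraries and are not independent, the ratio ran against span (Spearman rho -0.391). The tenth with the shortest span had a median ratio of 1.63 and the tenth with the longest, over 152882 bases, 0.804. The part of span in the members' ratios was not tested.

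The first comparison between groups, cocaine against saline, asks which members differ with the drug taken. No member was called at an adjusted p under 0.05 by edgeR's quasi-likelihood test (Benjamini-Hochberg over 14680 genes), where 0% of all genes were called. Unadjusted p-values were under 0.05 for 0 of 10 members and for 2.84% of genes. The member median log2 fold change was 0.05, and that of all genes 0.0036. The common biological coefficient of variation was 23.7%.

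**Figure D2:**
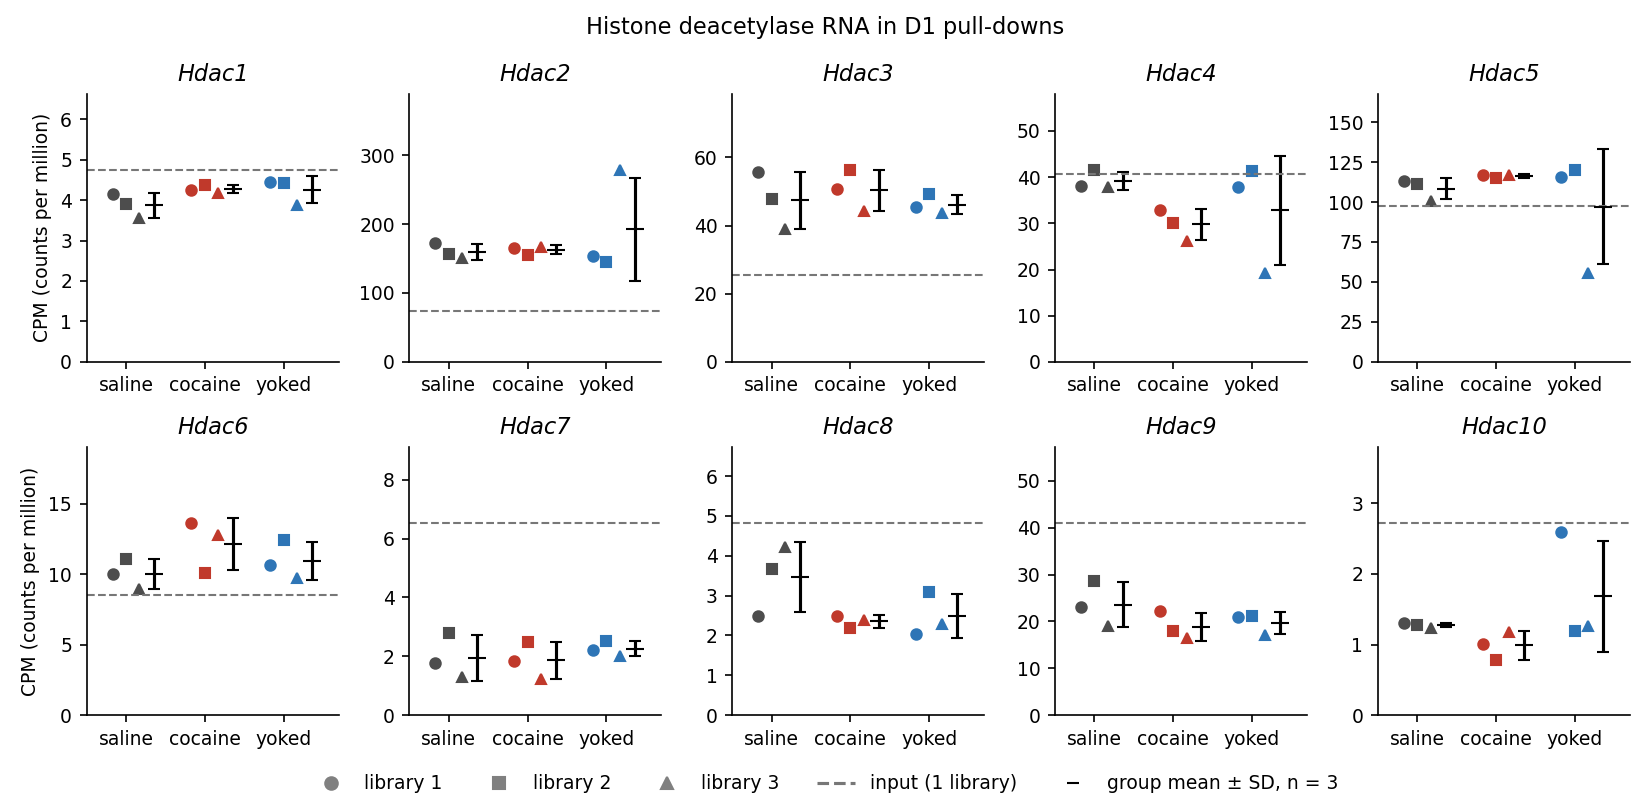
CPM of each of the 10 genes in the saline, cocaine and yoked pull-downs, with shapes for the library number, the group mean ± SD (n = 3) beside the points, and the single input as a dashed line. The 3 cocaine libraries of Hdac4, at 26.3 to 33.0 CPM, lie below the 3 saline libraries, at 37.9 to 41.5. Yoked 3 is the highest pull-down for Hdac2 and the lowest for Hdac4 and Hdac5.

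Hdac4 was lower in each cocaine library than in each saline library. It stood at 38.1, 41.5 and 37.9 CPM in saline 1, 2 and 3 and at 33.0, 30.2 and 26.3 in cocaine 1, 2 and 3. Group means were 39.2 ± 2.02 and 29.8 ± 3.37 CPM (SD, n = 3 each), and the log2 fold change was -0.34 ± 0.22 (SE), or 0.790-fold (edgeR unadjusted p = 0.138, Benjamini-Hochberg adjusted p = 0.999). Without yoked 3, which enters the shared estimate of the spread, the log2 fold change was -0.34 ± 0.12 (edgeR unadjusted p = 0.0111, adjusted p = 0.741), and 6.64% of genes had an unadjusted p under 0.05. Leaving out any 1 pull-down gave -0.39 to -0.28. All 5 cortical glutamatergic markers with enough counts had higher values in cocaine than in saline libraries (median log2 fold change 0.49, 0 called). The sum over 6 such markers was 24.3, 70.4 and 80.0 CPM in saline and 70.4, 74.0 and 103 CPM in cocaine libraries, so saline 1 stood lowest, and their part in the result was not tested.

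Hdac5, another class IIa member, was not lower in cocaine libraries. It stood at 113, 111 and 101 CPM in saline and 117, 115 and 117 in cocaine libraries, a log2 fold change of 0.16 ± 0.21 (edgeR adjusted p = 0.999). The cocaine libraries lay just above the saline libraries. Counting intervals of saline 1 (109 to 117 CPM) and saline 2 (105 to 117) overlapped those of the cocaine libraries, such as cocaine 2 (111 to 119). That of saline 3 (96.7 to 105) did not. Hdac1 was likewise higher in each cocaine library, with group means of 4.26 ± 0.101 and 3.87 ± 0.305 CPM, although the counting intervals of its libraries overlapped (saline 1 from 3.44 to 4.97 and cocaine 1 from 3.58 to 5.02). Of the 9 members with a mean count of at least 50, these 3 had cocaine and saline libraries that did not overlap, and 11.9% of 11895 genes did.

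The reads of Hdac4 per read of Hdac5 were 0.337, 0.374 and 0.377 in saline, 0.281, 0.263 and 0.225 in cocaine and 0.326, 0.345 and 0.345 in yoked libraries, and 0.417 in the input. The group means were 0.362 ± 0.0220, 0.256 ± 0.0285 and 0.339 ± 0.0108 (SD, n = 3 each). All 3 cocaine libraries lay below all 6 others, and yoked 3 lay within the range of the rest. The highest cocaine library, cocaine 1, had a 95% counting interval of 0.263 to 0.301, and the lowest of the others, yoked 1, one of 0.307 to 0.346. The pair was chosen after its values were seen, so the difference is given without a test. Hdac4 was lower and Hdac5 higher in each cocaine than in each saline library. A separation of cocaine from saline libraries in their ratio follows from that. The share of gene pairs that separate in this way was not measured. The intervals hold no spread between libraries, and the cocaine libraries have a lane of their own.

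**Figure D3:**
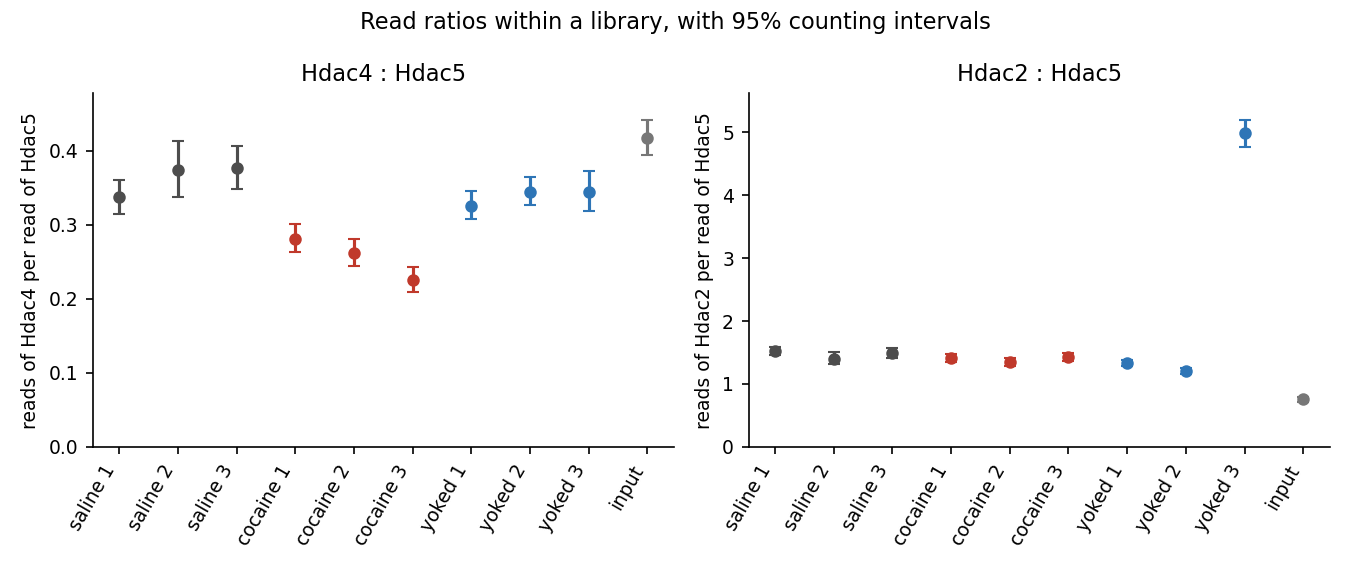
Reads of Hdac4 (left) and of Hdac2 (right) per read of Hdac5 in each of 10 libraries, with exact 95% counting intervals. On the left the 3 cocaine libraries, at 0.225 to 0.281, lie below the 6 other pull-downs, at 0.326 to 0.377; on the right yoked 3, at 4.98, stands apart from the other pull-downs, at 1.20 to 1.52.

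The remaining members had cocaine and saline libraries that overlapped. Hdac2 differed by a log2 fold change of 0.09 ± 0.22 and Hdac3 by 0.15 ± 0.15. Hdac6, the tubulin deacetylase, stood at 10.03, 11.1 and 8.98 CPM in saline and 13.6, 10.1 and 12.7 in cocaine libraries, a log2 fold change of 0.33 ± 0.18 (edgeR unadjusted p = 0.0899, adjusted p = 0.999). Cocaine 2 was the library that overlapped. Hdac8 stood at 2.50, 3.67 and 4.23 CPM in saline and 2.49, 2.18 and 2.39 in cocaine libraries (-0.50 ± 0.31, edgeR unadjusted p = 0.130), where saline 1 was level with cocaine 1. Hdac9 had -0.27 ± 0.18, Hdac10 -0.31 ± 0.43 and Hdac7 0.02 ± 0.38. Without saline 1, saline 3 or cocaine 2 the value of Hdac7 was below 0, at -0.06, -0.19 and -0.25.

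Cocaine was then compared with the yoked control. The comparisons share the cocaine libraries, so their values are not independent. No member was called (edgeR, Benjamini-Hochberg, smallest adjusted p among members 0.974), where 0% of genes were. Unadjusted p-values were under 0.05 for 0 of 10 members and for 2.58% of genes, and no member had groups that did not overlap (6.27% of genes). Hdac4 was at 37.8, 41.4 and 19.2 CPM in yoked 1, 2 and 3. With yoked 3 its log2 fold change was -0.12 ± 0.22, and without it -0.37 ± 0.13 (edgeR unadjusted p = 0.0111, adjusted p = 0.727, with 6.80% of genes under 0.05). Without yoked 2 it was 0.08. Hdac2 had -0.24 ± 0.22 with yoked 3 and 0.16 ± 0.11 without it, and Hdac5 0.28 ± 0.21 and 0.02 ± 0.10. Hdac5 was at 0.41 without yoked 1 and 0.46 without yoked 2, and Hdac4 at -0.02 without yoked 1.

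Hdac10 had the largest difference between cocaine and yoked libraries in size. It stood at 1.004, 0.778 and 1.18 CPM in cocaine and 2.59, 1.19 and 1.26 in yoked libraries, a log2 fold change of -0.74 ± 0.42 (edgeR unadjusted p = 0.102, adjusted p = 0.974). Yoked 1, with 100 counts (95% interval 2.11 to 3.15 CPM), stood alone, and yoked 2 and yoked 3 had 52 and 57 counts. Leaving out any 1 pull-down gave -0.94 to -0.32, and without yoked 3 the value was -0.89. The other log2 fold changes were 0.02 ± 0.22 for Hdac1, 0.14 ± 0.15 for Hdac3, 0.16 ± 0.18 for Hdac6, -0.26 ± 0.37 for Hdac7, -0.06 ± 0.31 for Hdac8 and -0.05 ± 0.17 for Hdac9. Without yoked 3 that of Hdac1 was -0.02.

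Yoked and saline libraries were compared last. No member was called (edgeR, Benjamini-Hochberg, adjusted p = 0.999 for each of the 10), where 0% of genes were, and unadjusted p-values were under 0.05 for 0 of 10 members and for 1.84% of genes. Of the 9 members with enough counts, Hdac1 alone had groups that did not overlap on the TMM scale (6.35% of genes), with a log2 fold change of 0.18 ± 0.22, while in CPM yoked 3 lay among the saline libraries. Hdac2 had 0.33 ± 0.22 with yoked 3 and -0.08 ± 0.11 without it, Hdac4 -0.22 ± 0.22 and 0.03 ± 0.13, and Hdac5 -0.12 ± 0.21 and 0.14 ± 0.10. All 3 changed sign with that library. Hdac8 had -0.44 ± 0.31, Hdac9 -0.21 ± 0.18, Hdac10 0.43 ± 0.43, Hdac7 0.28 ± 0.38, Hdac6 0.17 ± 0.18 and Hdac3 0.0047 ± 0.15. The value of Hdac10 was 0.0089 without yoked 1.

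**Figure D4:**
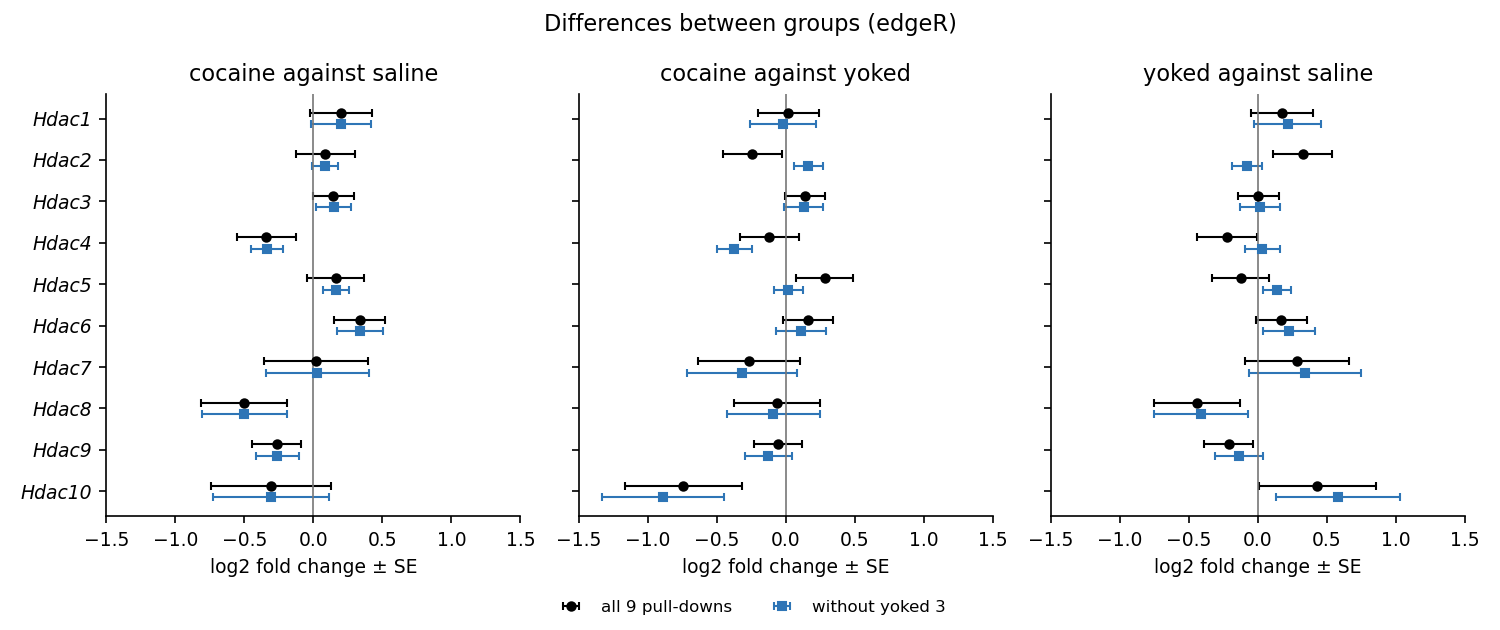
Log2 fold change ± SE of the 10 genes in the 3 comparisons, from all 9 pull-downs (black circles) and without yoked 3 (blue squares). No gene was called in any comparison, and in yoked against saline Hdac2, Hdac4 and Hdac5 lie on opposite sides of 0 with and without that library.

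In yoked 3 itself, Hdac2 was 1.87-fold above the median of the other 8 pull-downs (TMM-normalised), higher than 96.7% of genes in that library. Hdac5 was 1.96-fold and Hdac4 1.82-fold below it, with 3.68% and 5.11% of genes lower. These were the members at least 1.5-fold away, 3 of the 9 with a mean count of at least 50, a share near the 24.7% of all such genes. In the same library 8 of 8 oligodendrocyte, 6 of 8 astrocyte, 4 of 5 D2 neuron and 3 of 5 interneuron markers were at least 1.5-fold lower and 3 of 5 cortical markers at least 1.5-fold higher, and their part in these values was not tested. The remaining 7 members lay within 1.17-fold of the median in that library. Hdac2 had 4.98 reads per read of Hdac5 (95% interval 4.78 to 5.20), where the other pull-downs had 1.20 to 1.52.

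**Figure D5:**
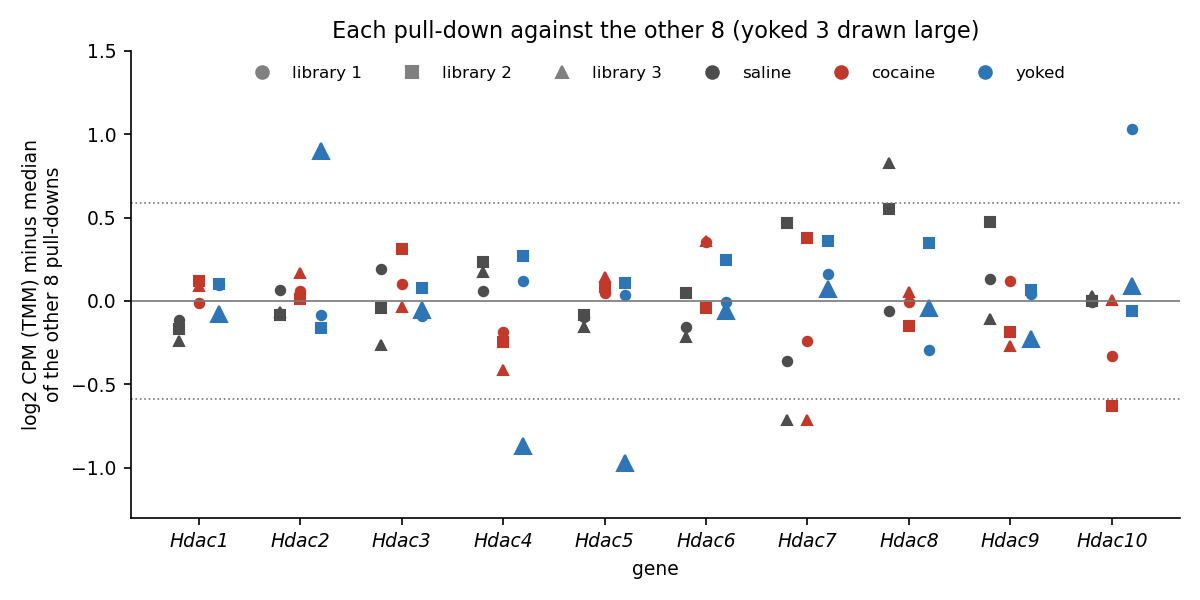
Log2 CPM (TMM) of each pull-down minus the median of the other 8, for the 10 genes; dotted lines mark 1.5-fold and yoked 3 is drawn large. Yoked 3 lies above the upper line for Hdac2 and below the lower line for Hdac4 and Hdac5, and near 0 for the others.

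The genes closest to a member in profile over the 9 pull-downs were looked up. For Hdac2 the closest of 11023 genes was Hprt (root mean square difference of 0.0559 on the centred log2 CPM scale), followed by Cisd2 and Hebp1. For Hdac4 they were Zfp532 (0.0613), Plekhm1 and Kansl3, and for Hdac5 Btbd2 (0.0563), Dcakd and Lzts1. These 3 members were chosen after their values were seen. Hprt, Zfp532 and Btbd2 had log2 differences of 0.79, -0.88 and -0.94 in yoked 3, so the likeness includes that library. The members with the widest spread were the low-count genes Hdac10, Hdac7 and Hdac8, and their closest genes were Rasip1 (0.231), Stxbp3a (0.143) and Nrxn2 (0.160), against SDs of the members of 0.444, 0.396 and 0.352. For these, counting error alone gives a coefficient of variation of 16.7%, 13.3% and 11.2%, against 38.6%, 26.8% and 26.9% measured. Without yoked 1 that of Hdac10 was 15.4%, within its counting error. Without yoked 3 the coefficient of variation of Hdac2 was 5.87% in place of 23.9% and that of Hdac5 5.17% in place of 18.7%.

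Genes that act with these enzymes were read from lists drawn up with earlier results of these data known. Of 38 corepressor complex subunits tested, 0 were called in any comparison. Their median log2 fold change was 0.01 in cocaine against saline (20 higher, 18 lower in value) and -0.06 in yoked against saline. Their median ratio to the input was 1.05, against 1.07 for all genes. Sap30 of the Sin3 complex (2.42) and Sin3b, the Sin3 scaffold (1.89), had the highest ratios, and Gatad2a of NuRD (0.416) and Phf21a of CoREST (0.562) the lowest. In yoked 3, 7 of 38 subunits were at least 1.5-fold lower and 1 at least 1.5-fold higher, where 12.5% and 12.2% of all genes were.

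Of 17 listed kinases that act on class IIa enzymes, directly or through another kinase (Stk11), 0 were called in any comparison. Their median log2 fold change in cocaine against saline was -0.05. Camk2b, a CaM kinase II subunit, had a ratio to the input of 1.76 and Camk1g 1.66, whereas Prkd3 (0.166), a protein kinase D, and Camk2d (0.554) were below it. The 14-3-3 genes had mean ratios above 1 in 6 of 6 with enough counts, where 6561 of 11896 genes did. Ywhah (2.51) and Ywhae (1.82) were the highest, and Ywhaz (1.29) and Ywhag (1.13) the lowest. Of these 6 genes, 2 were at least 1.5-fold above the input in all 9 pull-downs, and Ywhag reached down to 0.830. None of the 7 14-3-3 genes was called in any comparison. The Mef2 genes Mef2a (1.14), Mef2c (1.05) and Mef2d (1.35) were near the input, and 0 of 3 tested were called. In yoked 3 Mef2d was at a log2 difference of -1.13.

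The enzymes that add acetyl groups had a median ratio to the input of 0.887 over 13 genes. Hat1, which acetylates new histone H4, was at 1.83 and Kat2a (GCN5) at 1.65, and Kat2b (PCAF) at 0.501 and Ncoa3 at 0.579. Of the 13, 10 had lower values in cocaine than in saline libraries, with a median log2 fold change of -0.18, and 0 were called. The other deacetylases, Hdac11 of class IV and the 7 sirtuins, had a median ratio of 1.49. Hdac11 stood at 99.9 to 155 CPM across pull-downs against 80.3 in the input, a ratio of 1.62, Sirt5 was at 1.76, Sirt1 at 0.665 and Sirt4 at 0.752. Of these 8 genes, 7 had higher values in cocaine than in saline libraries (median log2 fold change 0.14), and 0 were called in any comparison. The median of all genes was 0.0036 in cocaine against saline, and the share of all genes in each direction was not measured. In either list 0 genes had an edgeR unadjusted p under 0.05 in that comparison. Genes read in the same libraries are not independent, and the counts of direction were not tested.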

How the data were processed

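Members and lists were chosen with earlier results of these data known. Reads were counted per gene by the authors, and the deposited files hold raw whole counts. Per the submitters' processing notes, STAR 2.0.0e, HTSeq and mm10 were used. Annotation, strand and counting mode are not stated in the labels, so reads where Hdac7 and Slc48a1 overlap are uncertain. The 6 rows naming no gene were left out. Levels are CPM of the gene total. Groups were compared with edgeR 4.0.16 under R 4.3.3 (robust quasi-likelihood F test, TMM, filterByExpr, group as the only term, all 9 pull-downs), with Benjamini-Hochberg adjustment over 14680 genes and calls at an adjusted p under 0.05. SE is the log2 fold change over the root of F. Ratios to the input divide the mean pull-down CPM by the input CPM. Intervals are exact Poisson, or exact binomial for read ratios, at 95%. Genes outside the family were named by a rule: from each list up to 4, those called, otherwise the 2 highest and 2 lowest ratios to the input among genes averaging at least 50 counts; exceptions are stated. Alternatives were RLE scaling, DESeq2 1.42.0, no filter, a replicate block, libraries left out, and, for ratios, other scalings and 2 CPM added.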

Additional observations from a re-analysis of the deposited data

Results flagged for a closer look

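Among the 9 pull-downs, 3 values lay farther from the rest than Dixon's 95% critical value for 9 samples, where chance flags about 1 in 20 sets. The share of all genes flagged in this way was not measured, so the count has no background. Hdac2 in yoked 3, at 278 CPM, was the highest, with a gap to the next library of 0.795 of the whole range. Hdac5 in yoked 3, at 55.8 CPM, was the lowest, with a gap of 0.700 of the range. Hdac10 in yoked 1, at 2.59 CPM from 100 counts, was the highest, with a gap of 0.710. Hdac4 in yoked 3, at 19.2 CPM, had a gap of 0.316 and did not pass. The flags of Hdac2 and Hdac5 come from the same library and are not independent. In that library 24.7% of 11895 genes lay at least 1.5-fold from the median of the other 8 pull-downs.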

How the results depend on the processing

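Over 420 values (30 member comparisons under the alternatives) none passed the threshold, the smallest adjusted p being 0.727, and 22 changed direction, in 11 of the 30. The cause was not tested. Without the 3 libraries numbered 3 the log2 fold changes that turned were -0.0276 for Hdac1, 0.12 for Hdac2 and -0.0079 for Hdac5 in cocaine against yoked, and -0.0929 for Hdac2, -0.0881 for Hdac3, 0.0376 for Hdac4 and 0.12 for Hdac5 in yoked against saline. With RLE scaling Hdac3 in yoked against saline was at -0.0001. With 1 pull-down left out, the ranges that crossed 0 were -0.25 to 0.34 for Hdac7 in cocaine against saline; -0.0182 to 0.0463 for Hdac1, -0.41 to 0.16 for Hdac2, -0.37 to 0.0799 for Hdac4, -0.19 to 0.12 for Hdac8 and -0.16 to 0.0080 for Hdac9 in cocaine against yoked; and -0.0775 to 0.49 for Hdac2, -0.0936 to 0.12 for Hdac3, -0.42 to 0.0333 for Hdac4 and -0.30 to 0.14 for Hdac5 in yoked against saline.

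Genes called over all genes numbered 0 in each comparison. In cocaine against saline there was 1 with DESeq2, 1 with the replicate block and 1 without the libraries numbered 3, and 0 to 1 with a library left out. In cocaine against yoked there was 1 with the replicate block and 0 with any library left out, and in yoked against saline 1 with the block and 0 to 1 with a library left out. The block called 0 members. Deviations of same-numbered libraries correlated by 0.0027 to 0.230, all above 0, and those of differently numbered libraries by -0.2447 to 0.1404. The pairs among libraries numbered 3 were the highest, at 0.2135, 0.2293 and 0.2304, so these libraries shared part of their deviations. The source of that part was not tested. Libraries numbered 2 and 3 each correlated best with a library of the same number. Those numbered 1 did not all do so, and not all same-numbered pairs were above 0.1. The labels state no pairing, so the main fit has no term for the number. Any part shared by number therefore stays in the spread of that fit.

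Members at least 1.5-fold above the input in all pull-downs numbered 1 (Hdac2) in place of 2 with totals without Rn45s and Malat1, and 1 with 2 CPM added; with a pull-down left out there were 2 throughout. Those below numbered 1 to 2, with Hdac9 joining without saline 2 and Hdac10 without yoked 1. With 2 CPM added the log2 ratio was -1.08 in place of -1.69 for Hdac7 and -0.51 in place of -1.05 for Hdac10. Depth limits Hdac1, Hdac7, Hdac8 and Hdac10, with 16 to 193 counts per pull-down.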
